A study of Mus musculus with 6 samples.

Results

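Trp53, which encodes the transcription factor p53, and 9 of its best-known target genes were described in mouse macrophages exposed to SKI-II. The 10 genes, Trp53, Mdm2, Cdkn1a, Btg2, Gtse1, Ccng1, Trp53inp1, Phlda3, Zmat3 and Sesn1, were taken by symbol from the 49315 genes of the count table. RNA-seq was performed on RAW264.7 cells, a mouse macrophage line of wild-type genotype per the labels, exposed for 24 h to SKI-II, an inhibitor of sphingosine kinases, at 4 μg/mL, or to its vehicle DMSO alone. There were 3 libraries per group, with 12495957 to 20050677 counts each. The labels do not say whether the replicates were separate cultures, and the study's methods refer for the treatment to its quantitative PCR assay, which they describe as done in biological replicates. The p-values measure the spread between these libraries, which may be technical if they were not separate cultures, and the results hold for 1 cell line.

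p53 is a DNA-binding factor that is made continuously and destroyed continuously, because its target Mdm2 encodes the ubiquitin ligase that marks p53 for degradation. Stress slows this degradation, so p53 activity is set mainly by protein stability and modification and not by the amount of Trp53 mRNA. Its targets halt the cell cycle, repair DNA, adjust metabolism or promote cell death, and p53 lowers many cell cycle genes indirectly, through the CDK inhibitor p21 and the DREAM repressor complex.

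p53 binds a pair of decamers, each made of a CATG-like core between purines and pyrimidines. The p53 decamer was searched on both strands of the RefSeq promoter windows, which cover 300 bases around a start site on GRCm38.p6. Of the 10 genes, 8 had a window, 11 windows in all. The decamer lay in 6 of these 11 windows and in 8.36% of all 32851 windows. For the lists described below, it lay in 11 of 51 windows of other p53-induced genes (21.6%). On the p53-p21-DREAM list it lay in 3 of 14 (21.4%). Adjoining decamers with no spacer and at most 1 mismatch lay in 3 of the 11 windows, those of Cdkn1a, Ccng1 and Gtse1, and in 0.0883% of all windows. These are shown first, because they are the closest matches to a full p53 element without a spacer in these windows, with the 20 bases of the match in capitals.
Cdkn1a, chr17:29090908-29090963, plus strand: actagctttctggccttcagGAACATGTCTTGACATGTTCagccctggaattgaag
Ccng1, chr11:40755442-40755501, minus strand: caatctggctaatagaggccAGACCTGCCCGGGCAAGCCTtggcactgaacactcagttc
Gtse1, chr15:85859945-85859964, plus strand: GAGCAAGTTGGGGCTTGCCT
The Cdkn1a match ended 32 bases before the upstream of the gene's 2 RefSeq start sites and lay outside any annotated gene. The Ccng1 match, also outside any gene, ended 176 bases before the start site. The Gtse1 match spanned the later of the gene's 2 start sites, with all but its first base in the 5′ untranslated part of the transcript that begins there. The mismatch was at base 11 of the Cdkn1a match, base 5 of the Ccng1 match and base 10 of the Gtse1 match, counted from 1 at the 5′ end. The windows of Trp53, Mdm2 and Sesn1 held single decamers, shown in capitals because Mdm2 and Sesn1 moved in opposite directions below.
Trp53, chr11:69580264-69580313, plus strand: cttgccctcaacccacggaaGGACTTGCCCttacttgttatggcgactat
Mdm2, chr10:117710915-117710964, minus strand: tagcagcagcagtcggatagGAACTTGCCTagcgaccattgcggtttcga
Sesn1, chr10:41887246-41887295, plus strand: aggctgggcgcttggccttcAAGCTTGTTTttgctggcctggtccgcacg
The Trp53 and Mdm2 stretches lay upstream of the genes, and the Sesn1 stretch lay in an intron of the longer transcript, ahead of a second start site. The windows do not hold the p53-responsive promoter in the first intron of Mdm2. A match of letters is a description and not a measured binding site.

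The cells carried the macrophage markers. All 8 macrophage genes examined (Adgre1, Csf1r, Cd68, Itgam, Lyz2, Ptprc, Spi1 and Mertk) passed the filter on low counts, while of 8 markers of T cells, B cells, fibroblasts and epithelium, 4 had no count in any library and none exceeded 18 counts. The summed normalized count of the macrophage markers was 134190 to 199540 with DMSO and 64410 to 104070 with SKI-II. Without Lyz2, the other 7 markers together had 44438 to 48967 with DMSO and 40791 to 42784 with SKI-II. Lyz2, Adgre1 and Itgam were lower with SKI-II, by log2 fold changes of -1.26, -0.92 and -0.93, and the other 5 did not pass the test. These 3 were named after their values were seen. The part of this shift in the results below was not tested. In bulk RNA, fewer cells with a transcript and less transcript per cell cannot be told apart.

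Of the 10 genes, all of which passed the filter on low counts, 1 was higher with SKI-II (Mdm2), 2 were lower (Gtse1 and Sesn1) and 7 did not pass the test, at an adjusted p below 0.05. Among all 12274 genes tested, 18.4% were called higher and 19.7% lower, or 38% in either direction, so the share of genes that moved was no larger here than in the table as a whole. The median log2 fold change was 0.01 over the 10 genes and 0.00 over all genes tested, with 5 values above 0 and 5 below. The values below are normalized counts, which are counts scaled to a library of mean size, and fold changes are SKI-II over DMSO.

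**Figure D1:**
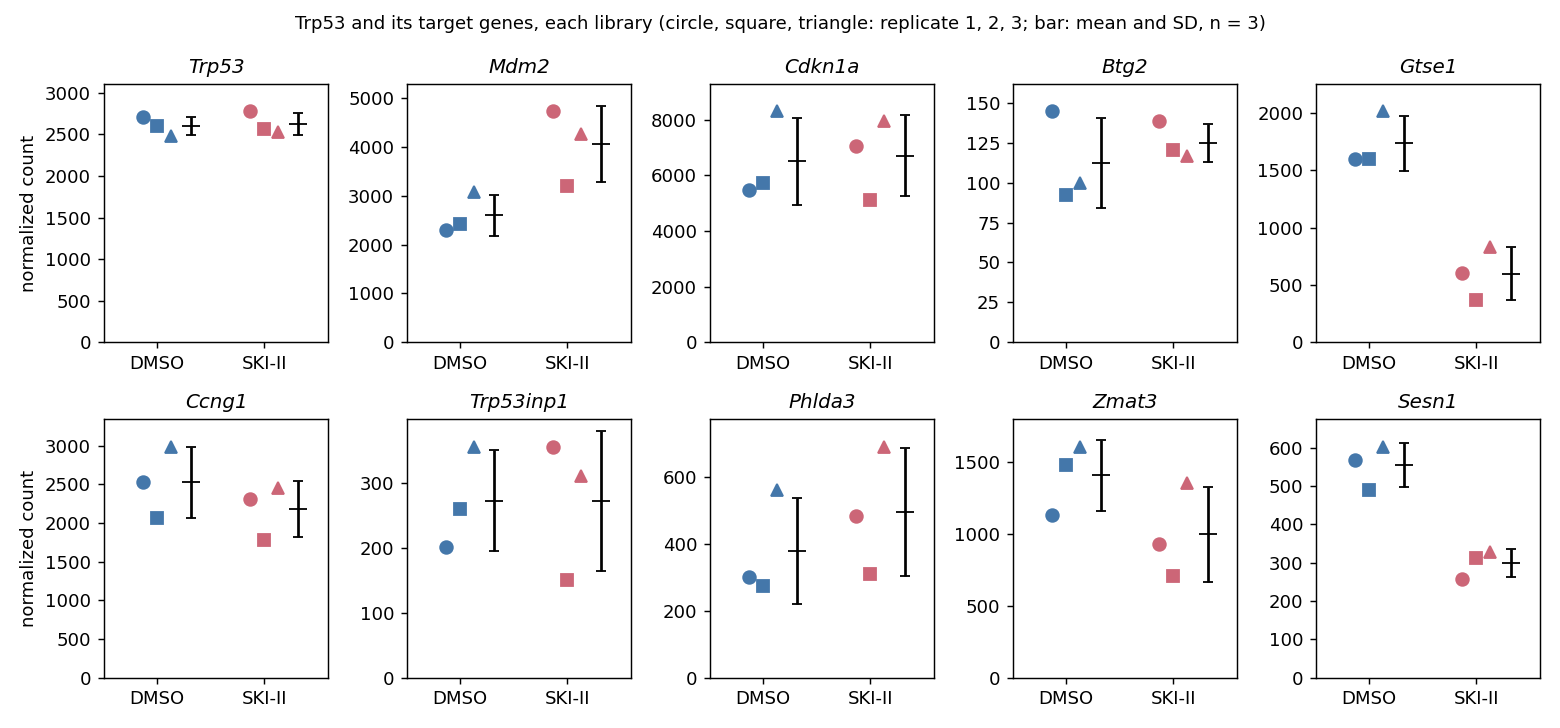
Normalized count (linear axis from 0) of Trp53 and its 9 target genes in each library, with DMSO in blue and SKI-II in red. Circles, squares and triangles mark replicates 1, 2 and 3, and the bar gives the mean and SD (n = 3). The groups are apart for Mdm2, Gtse1 and Sesn1 and overlap for the other 7 genes.

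Trp53 mRNA differed between the groups by less than the spread between replicates. Its normalized counts were 2705, 2605 and 2485 in DMSO replicates 1, 2 and 3 and 2777, 2569 and 2530 in SKI-II replicates 1, 2 and 3. The highest library was SKI-II 1 and the lowest DMSO 3, and the groups overlapped. The log2 fold change was 0.01 with an SE of 0.11 and a 95% interval from -0.23 to 0.26 (adjusted p = 0.932). Trp53, on chromosome 11 (69580359 to 69591873, GRCm38, plus strand), had the tightest replicates of the 10 genes, with SDs of 110 and 133 around means of 2599 and 2625.

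Mdm2, the ubiquitin ligase that holds p53 in check and is itself a p53 target, rose. The DMSO libraries had 2297, 2427 and 3079 normalized counts and the SKI-II libraries 4732, 3201 and 4267. Every SKI-II library was above every DMSO library, although SKI-II 2 and DMSO 3 lay close together. The log2 fold change was 0.64 (SE 0.17, 95% interval 0.26 to 1.03, adjusted p = 0.0143), or a ratio of means of 1.56. The call was lost without DMSO 2, at a log2 fold change of 0.59 and an adjusted p of 0.0711, and without SKI-II 1, at 0.52 and 0.0536. Mdm2 lies on chromosome 10 (117688875 to 117710758, minus strand).

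Relative to Trp53, the level of Mdm2 was on the log2 scale -0.24, -0.10 and 0.31 with DMSO and 0.77, 0.32 and 0.75 with SKI-II. The groups did not overlap, with DMSO 3 just under SKI-II 2, and the mean difference was 0.62. An exact two-sided permutation test gave p = 0.1, the smallest that 3 libraries against 3 allow, and 0.133 after adjustment over the 4 ratios examined. Mdm4, which encodes the p53-binding relative of Mdm2 that lacks strong ligase activity, had means of 1362 ± 433 (SD, n = 3) with DMSO and 1228 ± 96.4 with SKI-II, at a log2 fold change of -0.15 (SE 0.21, adjusted p = 0.617). The log2 ratio of Mdm2 to Mdm4 was 0.74 higher with SKI-II, with overlapping groups (exact permutation p = 0.2, adjusted 0.2).

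Cdkn1a encodes p21, the CDK inhibitor through which p53 halts the cell cycle, and was the most abundant of the 10 transcripts per length in both groups. Its normalized counts were 5489, 5717 and 8299 with DMSO and 7050, 5100 and 7945 with SKI-II. The highest value was DMSO 3 and the lowest SKI-II 2, so the groups overlapped fully. Between the groups, the log2 fold change was 0.04 (SE 0.21, 95% interval -0.41 to 0.50, adjusted p = 0.889). Leaving out 1 library moved it between -0.10 (without SKI-II 3) and 0.26 (without DMSO 3), with no call. On chromosome 17 (29090976 to 29100727, plus strand), 273 bases of the Cdkn1a exons overlap a gene model on the opposite strand, and the strandedness of the counting is not given in the sources used here.

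Btg2 encodes an antiproliferative protein that binds the deadenylase complex and slows entry into S phase. It had few reads, with 145, 92.2 and 100.01 normalized counts with DMSO and 139, 120 and 117 with SKI-II. All SKI-II values lay inside the range of the DMSO values. This gave a log2 fold change of 0.15 (SE 0.24, 95% interval -0.38 to 0.68, adjusted p = 0.651).

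Gtse1 had the largest difference of the 10 genes. It encodes a microtubule-associated protein made in S and G2 phases, which carries p53 out of the nucleus. There were 1599, 1602 and 2016 normalized counts with DMSO and 602, 371 and 828 with SKI-II. Each SKI-II library was below each DMSO library, with SKI-II 2 lowest. Gtse1 fell by 1.53 on the log2 scale (SE 0.24, 95% interval -2.08 to -0.99, adjusted p = 0.00116), a ratio of means of 0.345, and it was called lower under all 13 alternative fits. It was the only one of the 10 with a log2 fold change beyond 1 in either direction, where 7.44% of all genes tested were called lower and 8.28% higher by more than that. Gtse1 lies on chromosome 15 (85859745 to 85876573, plus strand).

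Besides the p53-like match above, the upstream window of Gtse1 held 3 CCAAT boxes, the NF-Y motif common in promoters of G2 and mitosis genes. The first and the second are shown in capitals, the second in the reverse orientation, because Gtse1 moved with the cell cycle genes below.
Gtse1, chr15:85859593-85859653, plus strand: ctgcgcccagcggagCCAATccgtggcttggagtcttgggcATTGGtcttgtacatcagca
CCAAT, searched on both strands, was in 37.4% of all windows and in 8 of the 11 windows of the 10 genes. TTTGAA, the CHR motif through which the DREAM complex binds many cell cycle promoters, was in 17.9% of all windows and in 0 of the 11. Among the genes of the p53-p21-DREAM list below, 9 of 14 windows held TTTGAA (64.3%) and 9 held CCAAT.

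Ccng1 encodes cyclin G1, which recruits a phosphatase to Mdm2 and is a long-known p53 target. It had 2527, 2068 and 2986 normalized counts with DMSO and 2314, 1777 and 2452 with SKI-II. Replicate 2 was the lowest and replicate 3 the highest in both groups, which overlapped. Ccng1 had a log2 fold change of -0.21 (SE 0.17, 95% interval -0.59 to 0.16, adjusted p = 0.348).

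Trp53inp1 encodes a nuclear stress protein that binds p53 and also takes part in autophagy. Its normalized counts were 202, 260 and 356 with DMSO and 356, 151 and 312 with SKI-II. The groups had the same mean, 273 ± 78.0 and 273 ± 108 (SD, n = 3), and overlapped. The log2 fold change was 0.00 to 2 decimals (SE 0.31, 95% interval -0.70 to 0.69, adjusted p = 0.997), and leaving out 1 library moved it between -0.24 and 0.29, still with no call.

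Phlda3 encodes a pleckstrin homology protein that competes with Akt for membrane lipids. It had 300.1, 274 and 562 normalized counts with DMSO and 486, 310.1 and 692 with SKI-II. SKI-II 3 was the highest library, but DMSO 3 was above both other SKI-II libraries. Phlda3 had a log2 fold change of 0.39 (SE 0.32, 95% interval -0.34 to 1.11, adjusted p = 0.381).

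Zmat3, also called Wig1, encodes a zinc finger protein that binds RNA and alters splicing and mRNA stability. Its normalized counts were 1134, 1482 and 1607 with DMSO and 929, 708 and 1357 with SKI-II. SKI-II 1 and SKI-II 2 were below every DMSO library, while SKI-II 3 was above DMSO 1. This gave a log2 fold change of -0.49 (SE 0.23, 95% interval -0.998 to 0.01, adjusted p = 0.112). Zmat3 was called lower without DMSO 1 (log2 fold change -0.65, adjusted p = 0.0464), without SKI-II 3 (-0.78, adjusted p = 0.0109) and with no filter on low counts (-0.49, adjusted p = 0.0109).

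Sesn1 encodes sestrin 1, a stress-induced inhibitor of mTORC1 signalling. It had 568, 490.2 and 602 normalized counts with DMSO and 256, 312 and 327 with SKI-II. All SKI-II libraries were below all DMSO libraries, with little spread inside either group. Sesn1 fell by 0.89 on the log2 scale (SE 0.16, 95% interval -1.24 to -0.54, adjusted p = 0.00174), a ratio of means of 0.539, and the call held under all 13 alternative fits. Sesn1 lies on chromosome 10 (41809935 to 41908424, plus strand).

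**Figure D2:**
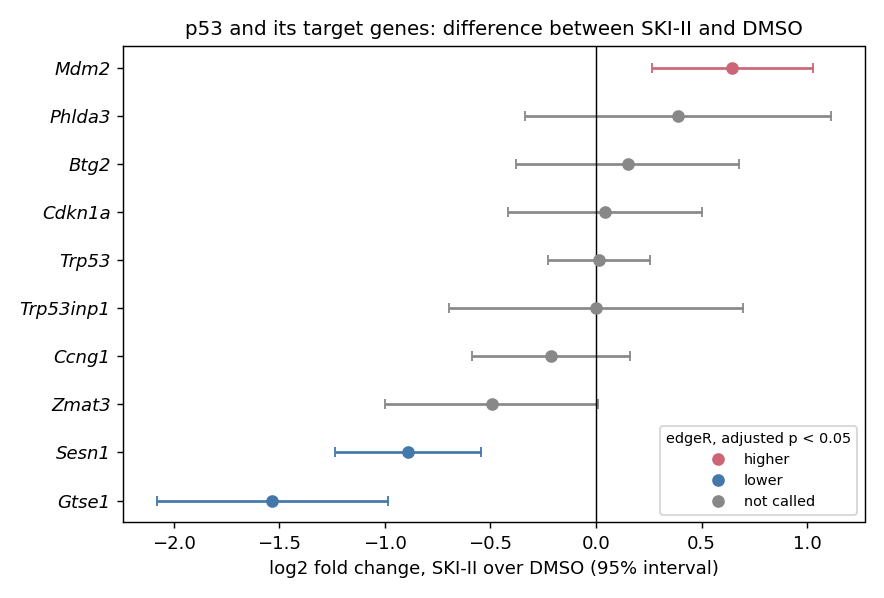
Log2 fold change (SKI-II over DMSO) of Trp53 and its 9 target genes with the 95% interval of the edgeR fit, red for called higher, blue for called lower and grey for not called. The intervals of Mdm2, Sesn1 and Gtse1 exclude 0, and that of Zmat3 reaches 0.01.

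The groups did not overlap for 1 gene in the higher direction and 2 in the lower, the same 3 genes that were called. Over all genes tested, 24.8% were apart in the higher direction and 25.5% in the lower, together 50.3%.

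Per length, on the RPKM scale (TMM-scaled reads per kilobase of exon and per unit of library size), the order with DMSO was Cdkn1a (114), Ccng1 (44.9), Trp53 (40.05), Gtse1 (39.5), Mdm2 (31.9), Phlda3 (15.2), Sesn1 (8.67), Zmat3 (7.67), Trp53inp1 (2.63) and Btg2 (2.55), as means of 3 libraries. Cdkn1a stood apart from Ccng1 in every library, while the neighbours from Ccng1 to Mdm2 overlapped, as did Sesn1 with Zmat3 and Trp53inp1 with Btg2. With SKI-II, Mdm2 came second at 49.9 ± 9.62 (SD, n = 3) and overlapped Trp53 at 40.5 ± 2.05, while Gtse1 came sixth at 13.7 ± 5.19 and overlapped Phlda3 at 19.8 ± 7.64. Cdkn1a remained the highest at 118 ± 25.5, and Trp53inp1 was the lowest at 2.63 ± 1.04.

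The 10 genes also differed between libraries inside each group, and several did so together. DMSO 3 was the highest of its group in 8 of the 10 genes, against 42.1% of all genes tested, with Trp53 and Btg2 as the exceptions. SKI-II 2 was the lowest of its group in 7 of the 10, against 28.7% of all genes tested. It was below the group mean in 9, with Sesn1 as the exception, where 51.1% of all genes tested were above the mean. SKI-II 3 was the highest of its group in 6 of the 10, against 37.1% of all genes tested. It was above the group mean in 8, against 50.9%. DMSO 2 was below its group mean in 8, where 47.4% of all genes tested were above the mean. The median deviation over the 10 genes was 0.24 on the log2 scale for DMSO 3, 0.23 for SKI-II 3, -0.13 for DMSO 2 and -0.35 for SKI-II 2, whereas over all genes tested the 6 medians lay between -0.01 and 0.01. Trp53 itself deviated by at most 0.08 in any library. What made these libraries differ was not tested. Without DMSO 3, the log2 fold change of Phlda3 was 0.79 and without SKI-II 3 it was 0.06, neither with a call.

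**Figure D3:**
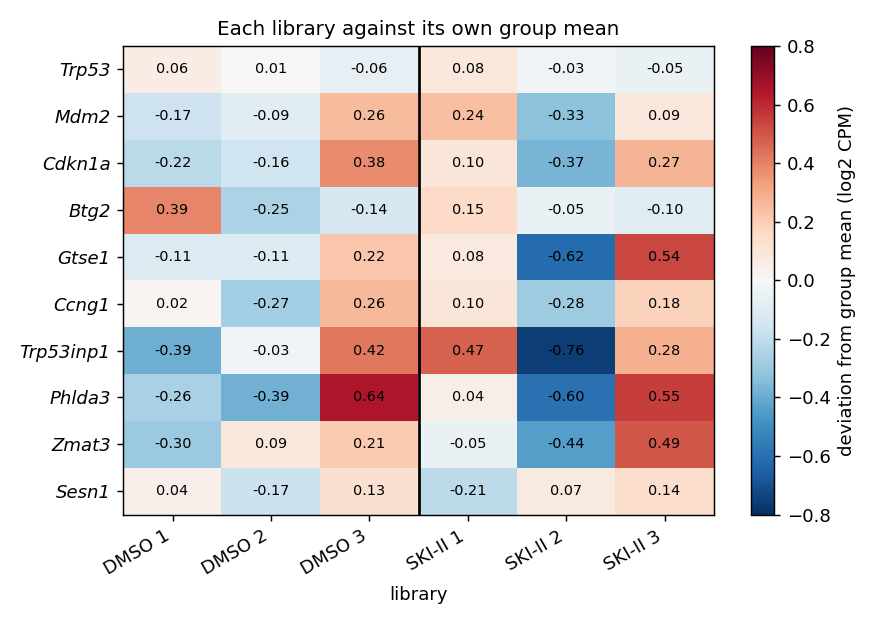
Deviation of each library from the mean of its own group (log2 CPM, colour scale and printed value) for Trp53 and its 9 target genes. DMSO 3 is above its group mean in 8 of 10 genes and SKI-II 2 below its group mean in 9 of 10.

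A further list held 45 p53-induced genes and none of the genes above. Of the 41 tested, 5 were higher (12.2%, against 18.4% of all genes tested), 7 lower (17.1%, against 19.7%) and 29 did not pass the test, with a median log2 fold change of -0.07. Gadd45a, an arrest and stress-sensor gene, rose from 257 ± 179 to 1717 ± 666 normalized counts (SD, n = 3), a log2 fold change of 2.74 (SE 0.45, adjusted p = 0.00154). Without DMSO 3, the highest of the DMSO libraries for this gene, it was 3.43, and over the other libraries left out in turn it ran from 2.32 to 2.91, called each time. Plk3, a stress-responsive polo-like kinase, rose by 1.51 (SE 0.15, adjusted p = 8.3e-05), and Rrm2b, the p53-inducible subunit of ribonucleotide reductase, rose by 0.78 (SE 0.14, adjusted p = 0.00231). In the lower direction, Dram1, a lysosomal membrane protein of autophagy, went from 1105 ± 221 to 318 ± 101 normalized counts, at -1.79 (SE 0.23, adjusted p = 0.000374).

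By role, 2 of 3 tested arrest genes rose (Gadd45a and Plk3), 1 of 7 DNA repair genes rose and 2 fell, 1 of 15 metabolic, redox and secreted genes rose and 2 fell, and 1 of 6 feedback genes rose. Of 10 tested cell death genes, none rose and 3 fell. These groups are small, and 18.4% of all genes tested were called higher and 19.7% lower, so nothing is read from their shares. Pidd1, which encodes the scaffold of the PIDDosome, had a log2 fold change of -1.15 (SE 0.35, adjusted p = 0.0269), and this call was lost without DMSO 1 (-0.73, adjusted p = 0.0923), without SKI-II 1 (-1.25, adjusted p = 0.0648) and without SKI-II 3 (-0.92, adjusted p = 0.0709). Pcna, the sliding clamp of DNA replication and repair, fell by 1.09 (SE 0.14, adjusted p = 0.000285). Bax, Bbc3 and Pmaip1, which encode the mitochondrial death proteins Bax, Puma and Noxa, were chosen after their values were seen. Bax was at 2270 ± 409 and 2302 ± 247 normalized counts (log2 fold change 0.02, adjusted p = 0.932), and Bbc3 at 1948 ± 946 and 1430 ± 473 (-0.44, adjusted p = 0.348), although Bbc3 was called lower without DMSO 1 (-0.79, adjusted p = 0.0222) and with no filter on low counts (-0.44, adjusted p = 0.0218). Pmaip1 fell by 1.07 (SE 0.27, adjusted p = 0.0113). The list counts moved with 1 library: without SKI-II 1, 4 of the list were lower in place of 7 (9.76%, against 16% of all genes in that fit).

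Of 23 listed regulators of p53, 20 were tested, 1 was higher (5%, against 18.4% of all genes tested) and 3 were lower (15%, against 19.7%), with a median log2 fold change of -0.13. Chek1, the checkpoint kinase of replication stress, went from 260 ± 23.0 to 60.4 ± 18.9 normalized counts (SD, n = 3), at -2.10 (SE 0.24, adjusted p = 0.000165), and Atm, the kinase that signals double-strand breaks to p53, fell by 0.76 (SE 0.13, adjusted p = 0.00152). Atr, the related kinase for stalled forks, was at -0.64 (SE 0.21, adjusted p = 0.0334). That call was lost without any one of the libraries other than DMSO 3, at log2 fold changes from -0.70 to -0.45 and adjusted p from 0.0623 to 0.101, and also with library size alone (-0.66, adjusted p = 0.0519). Trp53bp2, which encodes the p53-binding protein ASPP2, was at 0.45 (SE 0.14, adjusted p = 0.0293), and was lost without any one library other than SKI-II 1, at log2 fold changes from 0.42 to 0.46 and adjusted p from 0.0539 to 0.11, and with no filter on low counts (0.45, adjusted p = 0.0837). Without DMSO 3, 5 of the regulators were lower (25%, against 17.7% of all genes in that fit). Without DMSO 2, DMSO 3, SKI-II 2 or SKI-II 3 none was higher, against 12% to 17.7% of all genes in those fits. Cdkn2a, which encodes the Mdm2 inhibitor p19Arf beside p16, had no count in any of the 6 libraries, which allows up to 0.0311 CPM (3 counts of 96536077, counting error only).

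Of the genes on a list for repression by p53 through p21 and DREAM, nearly all were lower. The list also holds E2f4, which encodes a part of the repressor complex itself. Of the 18 on the list, from which Gtse1 was left out, 17 were lower, 0 were higher and 1, E2f4, did not pass the test (E2f4 was named after its values were seen). Among all genes tested, 19.7% were called lower and 18.4% higher. The list had a median log2 fold change of -1.96. Ccna2 (cyclin A2) was at -2.77 (SE 0.17, adjusted p = 8.7e-06), Mybl2 (B-Myb, a part of the activating MuvB complex) at -2.66 (SE 0.17, adjusted p = 9.09e-06) and Ccnb2 (cyclin B2) at -2.42 (SE 0.26, adjusted p = 0.000137). E2f4, the E2F of the repressor complex, was at -0.14 (SE 0.13, adjusted p = 0.427). Gtse1 at -1.53 lay inside the range of these genes, and Cdkn1a, which encodes the p21 that leads to DREAM, at 0.04.

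**Figure D4:**
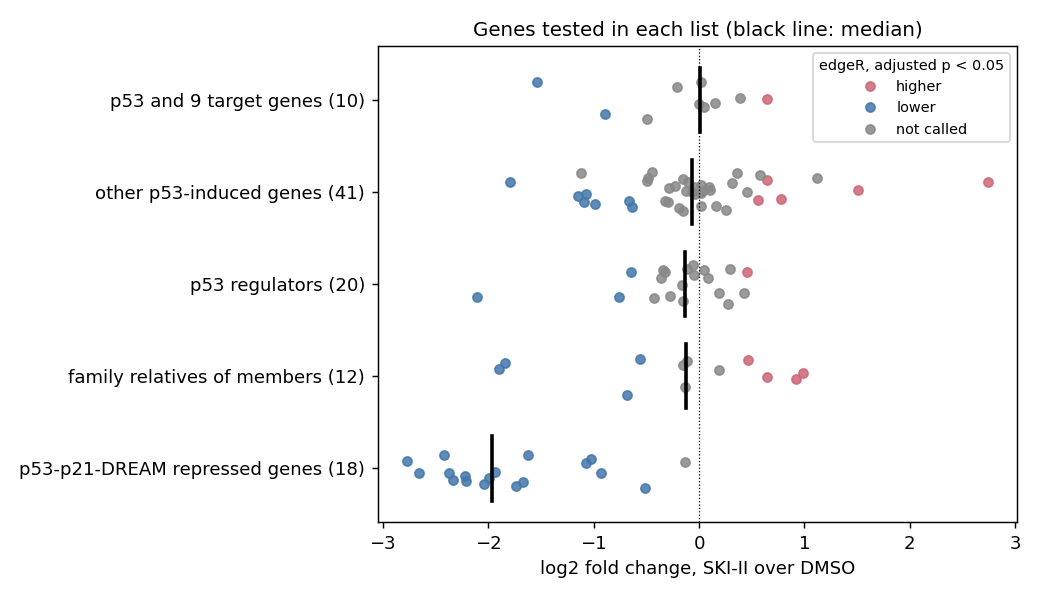
Log2 fold change (SKI-II over DMSO) of each gene tested, by list, with the number tested in brackets and a black line at the median. Red, blue and grey mark genes called higher, called lower and not called. The p53-p21-DREAM list lies below 0, with a median of -1.96, while the medians of the other 4 rows are between -0.13 and 0.01.

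Of 20 close relatives of the 10 genes, 12 were tested, 4 were higher (33.3%, against 18.4% of all genes tested) and 4 lower (33.3%, against 19.7%), with a median log2 fold change of -0.12. Sesn2, the stress-induced sestrin paralog, rose by 0.64 (SE 0.14, adjusted p = 0.00465), from 1282 ± 68.2 to 2002 ± 309 normalized counts (SD, n = 3), where Sesn1 fell. The log2 ratio of Sesn2 to Sesn1 was 1.16 to 1.32 with DMSO and 2.47 to 3.20 with SKI-II, with a difference of 1.53, no overlap and an exact permutation p of 0.1 (adjusted 0.133). Trp53inp2, the autophagy-related paralog of Trp53inp1, rose by 0.92 (SE 0.22, adjusted p = 0.00946). Its log2 ratio to Trp53inp1 was 0.92 higher with SKI-II, again with no overlap and an exact permutation p of 0.1 (adjusted 0.133).

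Among relatives of Cdkn1a, the CDK inhibitors Cdkn2c, Cdkn1b and Cdkn2d all fell, at log2 fold changes of -1.90 (SE 0.15, adjusted p = 1.88e-05), -0.69 (SE 0.15, adjusted p = 0.00592) and -0.56 (SE 0.14, adjusted p = 0.00985). These were the 3 tested of 6 listed, where 19.7% of all genes tested were called lower. Ccng2, the cyclin G paralog of Ccng1, fell by 1.84 (SE 0.40, adjusted p = 0.00612), and Ccni was at -0.11 (adjusted p = 0.66). Without SKI-II 1, the highest of the SKI-II libraries for Ccng2, its log2 fold change was -2.49, and over the other libraries left out in turn it ran from -2.09 to -1.57, called each time. Phlda1, a paralog of Phlda3, rose by 0.99 (SE 0.25, adjusted p = 0.0123).

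Of the Btg2 relatives, Tob1 was at 0.47 (SE 0.14, adjusted p = 0.0281). The Tob1 call was lost without DMSO 2 (adjusted p = 0.135), without DMSO 3 (0.0505) and without SKI-II 2 (0.107), and also with no filter on low counts (0.0607), at log2 fold changes from 0.40 to 0.47. Btg1 was at 0.19 (adjusted p = 0.615) and Tob2 at -0.14 (adjusted p = 0.539), neither called. The p53 homologs were at or near 0 reads. Trp63 had no count in any library, and Trp73 had 0, 3 and 1 counts with DMSO and 0, 0 and 1 with SKI-II, too few for a test.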

How the data were processed

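RNA-seq libraries of RAW264.7 cells, 3 with SKI-II (4 μg/mL, 24 h) and 3 with DMSO, were analysed, with groups and replicate numbers from the sample labels. The authors enriched poly(A) RNA, and the deposited table used here holds raw read counts per Ensembl gene, without normalization. The submitters' processing notes name Trimmomatic 0.36, STAR 2.5.2b, featureCounts of Subread 1.5.2 and DESeq2. Build, annotation release and strandedness are not stated in the sources used here. Symbols and positions were taken from GENCODE M21 (GRCm38), which named 49056 of 49315 genes. Unnamed genes held 0.0102% of the counts, and all columns were used.

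The main test was edgeR 4.0.16's quasi-likelihood test (R 4.3.3), with TMM scaling (factors 0.941 to 1.05), the expression filter by group at its defaults (minimum count 10, minimum total 15) with p-values adjusted over the 12274 remaining genes by Benjamini-Hochberg. An adjusted p below 0.05 was a call. Normalized counts refer to a mean effective library of 16042438 counts, and the common coefficient of variation was 17.5%. Libraries of a group differed beyond sampling noise (chi-square per degree of freedom 15.4 to 58.1), and each was treated as 1 replicate. This value cannot tell separate cultures from separate preparations of 1 culture. Ratios of genes were compared by exact two-sided permutation of the libraries. Limits from counts of 0 cover counting error only. The intervals of the log2 fold changes come from the edgeR fit and include the spread between libraries.

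The 10 genes, the 4 lists (written from general knowledge) and the markers were chosen with earlier results of these data known. The text names the 10 genes, the 3 called genes with the largest change in each direction of each list, relatives averaging at least 10 normalized counts, and Mdm4, Trp63, Trp73 and Cdkn2a. Others are said to be chosen after their values were seen. Sesn2 is in both the p53-induced and the relatives list, and Cdkn2a, Mdm4, Trp63 and Trp73 in both the regulators and the relatives list.

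The alternatives were DESeq2 1.42.0, limma-voom (limma 3.58.1), RLE scaling, library size alone, no filter, a minimum of 10 counts in all libraries, leaving out each library in turn, a replicate block and a log2 fold change beyond 1. In a simulation of this comparison with 200 genes changed by a log2 fold change of 2, edgeR recovered 99.5% with 13 false calls among 12102 genes. Recovery at smaller log2 fold changes was not tested, and those of the 10 genes ran from -1.53 to 0.64. Promoter windows are those of RefSeq for GRCm38.p6. Trp53inp1 and Zmat3 had none. Figures were drawn with matplotlib 3.10.9.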

Additional observations from a re-analysis of the deposited data

How the results depend on the processing

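Gtse1 and Sesn1 were lower in all 13 alternative fits and the call of Mdm2 was lost in 2, those without DMSO 2 and without SKI-II 1. The number of the 10 genes called higher was then 0, and over the fits that left out 1 library it ran from 0 to 1. At a log2 fold change beyond 1, 0 of the 10 were higher and 1 was lower, where 8.28% and 7.44% of all genes tested were. Of the other p53-induced genes, 2 and 4 of the 41 tested were higher and lower. Of the regulators these were 0 and 1 of 20, and of the relatives 0 and 2 of 12. With no filter on low counts, 8 of the other p53-induced genes were higher and 11 lower (18.6% and 25.6%, against 11.4% and 11.1% of all genes in that fit), and 0 regulators were higher. With 1 library left out, 4 to 9 of the other p53-induced genes were lower, 0 to 1 of the regulators higher and 2 to 5 lower, where 12% to 17.7% of all genes were higher and 14% to 18.9% lower. Sign changes occurred only for values near 0 that were called in no fit. Trp53inp1 was at 0.00 with DESeq2 and at 0.01 with RLE scaling, library size alone and at least 10 counts in every library. With 1 library left out, Trp53 ran from -0.03 to 0.04, Cdkn1a from -0.10 to 0.26, Trp53inp1 from -0.24 to 0.29, Btg1 from -0.07 to 0.52, Ccni from -0.28 to 0.07, Mdm4 from -0.38 to 0.05, Tob2 from -0.23 to 0.02 and Bax from -0.13 to 0.15. The cause was not tested.

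The replicate numbers were not taken to pair the libraries. Deviations of same-numbered libraries correlated at 0.246, 0.00994 and 0.458, the last the highest of all pairs, but SKI-II 2 correlated best with DMSO 1 (0.296). With the replicate number as a block, 1 of the 10 genes was higher and 3 were lower, the third being Zmat3 (-0.53, adjusted p = 0.0304), 12 of the other p53-induced genes were lower (29.3%, against 23% of all genes), and 2 regulators were higher and 5 lower. Over all genes, the block called 2765 higher and 2819 lower, against 2255 and 2413 without it. Among the 10 genes, Phlda3 and Trp53inp1 have the widest intervals, so changes inside these intervals were not detectable here.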

Other observations

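Trp53cor1, the gene of lincRNA-p21, which lies next to Cdkn1a on chromosome 17 and is itself a p53 target, was chosen after its values were seen. It had 151, 86 and 90 counts with DMSO and 121, 114 and 161 with SKI-II, with overlapping groups. The log2 fold change was 0.12 (SE 0.24, 95% interval -0.42 to 0.66, edgeR adjusted p = 0.724), close to that of Cdkn1a.

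Cdkn2a and its neighbour Cdkn2b, which encodes the CDK inhibitor p15, had 0 counts in all 6 libraries. The flanking gene Mtap on chromosome 4, also chosen after its values were seen, had 899 to 1306 counts with DMSO and 569 to 980 with SKI-II, at a log2 fold change of -0.63 (SE 0.15, edgeR adjusted p = 0.00767). Klhl9, on the other side of Mtap and chosen in the same way, had 4156 counts over the 6 libraries and a log2 fold change of -1.01 (SE 0.16, adjusted p = 0.00116). Whether the cells carry this locus was not tested.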
